A study of Drosophila melanogaster with 12 samples.

Results

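Ecdysone response genes are the 10 genes described here, *EcR*, *br*, *Eip74EF*, *Eip75B*, *Eip78C*, *Eip93F*, *Hr3*, *Hr4*, *Hr39* and *ftz-f1*, which were chosen by name and not by any measured value. All 10 were found among the 18164 genes annotated for the X, the fourth chromosome and the major autosomes of *Drosophila melanogaster*, and their 37 distinct transcript starts were measured as well. *Pcl* (*Polycomb-like*) occupancy on them was compared between flies fed a sugar diet (30% sucrose) and flies fed a control diet (5% sucrose), with 3 *Dam::Pcl* replicates per diet and 300 heads per replicate. Both groups carried the genotype Gr5a;tubulinGAL80ts>UAS-LT3-Dam::Pcl, in which *Gr5a-GAL4* drives a fusion of the bacterial methylase Dam to *Pcl* in the sweet taste neurons and a temperature-sensitive GAL80 keeps it off until the flies are warmed. Per the labels, both groups were kept at 20 °C, went onto their diet at day 5 and were moved at day 6 to 29 °C for 1 more day to induce the fusion, whereas the sample titles give 4 days and the methods also differ from the labels. Vials of both groups held age-matched males and females, so X-linked *br* and *Hr4* were read in a mixture of both sexes. DNA was taken from whole heads, and only cells that express the fusion contribute methylated fragments.

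Ecdysone is the steroid hormone of insect molting and metamorphosis. Its active form binds a dimer of the nuclear receptors *EcR* and *usp*, which switches on a small set of early genes that encode transcription factors. These in turn act on early-late and late genes, so that a pulse of hormone is read as a timed cascade. Several of the factors are also present in adult neurons, where ecdysone signalling acts in behavior and metabolism. *Pcl* is the accessory protein that defines PRC2.1, a form of the Polycomb complex that methylates lysine 27 of histone H3 at silenced developmental genes.

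The value used throughout is the deposited log2 ratio of *Dam::Pcl* to *Dam* alone in each GATC fragment. A measured ratio of 0 means as much methylation by the fusion as by free *Dam*. A positive ratio stands for *Pcl* occupancy above that background. Gene values are length-weighted means from 1 kb before to 1 kb beyond the gene, and start values are means over 1 kb on each side of a transcript start. A feature was called higher or lower on the sugar diet when limma's moderated test, adjusted by Benjamini-Hochberg over all features of that kind, gave an adjusted p under 0.05. The ratios hold no read counts, so the depth is unknown, and 3 replicates per diet limit the precision. The values average over the cells of a sample, so occupancy in fewer cells and weaker occupancy in each cell cannot be told apart.

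Across the series, 373710 fragments with a median length of 196 bp were measured on the 6 chromosomes. Between 11.8% and 12.5% of fragments were at exactly 0 in a sample, and 8.27% were at 0 in all 6. Whether an exact 0 is a measured ratio or a fragment without data cannot be told from the ratios, and all entered the means as 0. With the fragments at 0 in all 6 left out, all 10 spans and all 14 starts tested singly stayed on their side of the threshold. A fragment at 0 in 1 replicate was never below 0 in another replicate of its diet, but was below 0 in 8.99% to 15.7% of cases in a replicate of the other diet. Which *Dam*-only library each ratio was set against is not given in the sources used here. Whether the spread between replicates holds the error of that library was not tested. Were it shared by the replicates of a diet, its error could not be told apart from a difference between the diets. The known Polycomb targets *Ubx* and *Abd-B* averaged 2.99 and 4.08 on the sugar diet, against 2.70 and 3.91 on the control diet, and neither was called different. *Gr5a*, whose promoter drives the fusion, had 0.20, 0.25 and 0.12 on the sugar diet, against 0.28, 0.28 and 0.15 on the control diet, and was not called. After the GC correction described below, *Ubx* was called higher (0.41, limma adjusted p = 0.0262) and *Gr5a* lower (-0.34, limma adjusted p = 0.0185). *Abd-B* was not called after it. Of the 8 sweet taste receptor genes 3 were called higher and 1 lower, where *Gr64b* and *Gr64c* share 1 span. These are binding ratios and not expression, so they cannot check the labelled cell type. The glial gene *repo* averaged 1.71 ± 0.14 on the sugar diet and 0.92 ± 0.098 on the control diet (SD, n = 3 each; limma adjusted p = 0.00277).

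*br* and *Eip93F* had the highest span means of the 10 genes on both diets. *br* averaged 1.07 ± 0.17 on the sugar diet and 0.72 ± 0.044 on the control diet (SD, n = 3 each), at percentiles 92.5 and 89.0 of all genes tested. *Eip93F* averaged 0.46 ± 0.15 on the sugar diet and 0.55 ± 0.12 on the control diet, at percentiles 82.1 and 85.0. On the sugar diet, *br*, *Eip93F* and *Hr4* stood apart from each other and from all members below them. *Eip74EF*, *Eip78C*, *Hr3*, *ftz-f1* and *EcR* followed between -0.058 and -0.098, with overlapping replicates, and *Eip75B* at -0.25 and *Hr39* at -0.38 each stood apart at the bottom. On the control diet, *br* overlapped *Eip93F*, *Eip93F* stood apart from *ftz-f1* at 0.26, and from there down each neighbor overlapped the next. *Hr4* was last on the control diet at -0.063, while it was the third of the 10 on the sugar diet at 0.18. The median of the 10 span means was -0.060 on the sugar diet and 0.096 on the control diet, against -0.027 and 0.039 over all genes.

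Between the diets, *br* and *Hr4* rose on the sugar diet and *Eip75B*, *Hr39* and *ftz-f1* fell, while the other 5 did not pass the test. This is 2 of 10 higher, where 22.3% of the 18119 genes tested were called higher, and 3 of 10 lower, where 25.7% were called lower. In all, 48% of genes were called, so a call on a member is about as frequent as on any gene. All sugar replicates lay above all control replicates for 2 members and below them for 6, against 28.2% and 31.7% of all genes, and they overlapped for 2. The median difference, sugar minus control, was -0.15 over the 10 genes and -0.0072 over all genes. The calls followed the base composition of the spans. A correction was made that removes from each sample its trend with GC content, which may vary with level, but not a trend with level alone. After it, the calls on *br*, *Hr4*, *Eip75B* and *Hr39* were lost. *ftz-f1* was called higher instead of lower, a reversal seen in 2.19% of all genes.

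**Figure D1:**
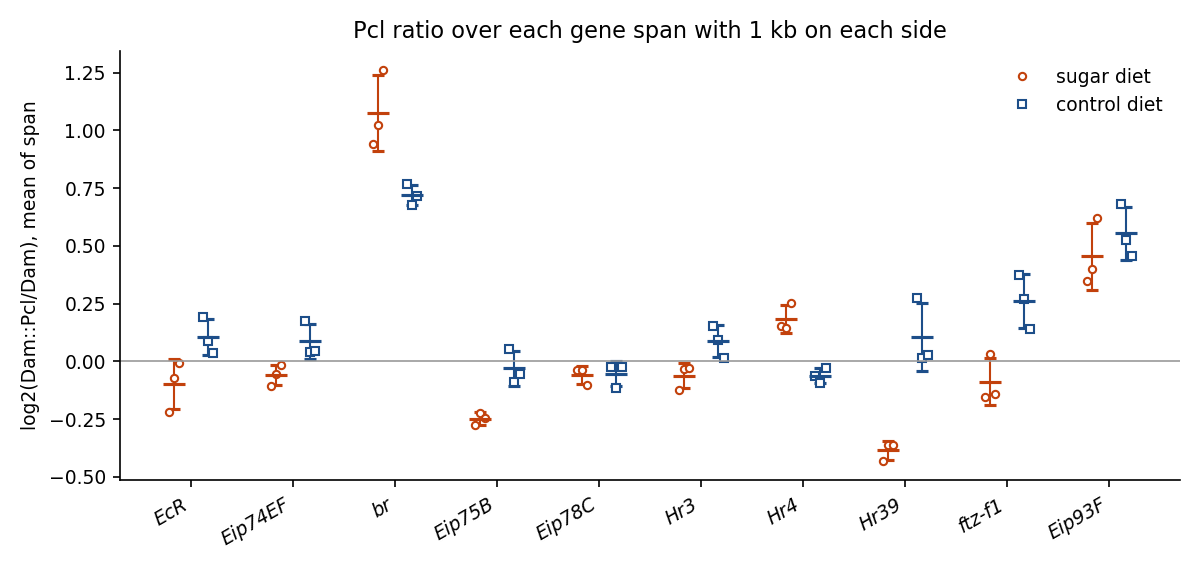
Mean log2(Dam::Pcl/Dam) from 1 kb before to 1 kb beyond each gene (y axis) for the 10 genes (x axis). Open symbols are replicates, horizontal ticks are means and bars are SD (n = 3 per diet); *br* lies highest on the sugar diet, between 0.94 and 1.26, and the sugar replicates of *Hr39*, between -0.43 and -0.36, lie below all of its control replicates.

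The hormone receptor *EcR* (FBgn0000546, chr2R:6087873-6169087, minus strand) had span means of -0.22, -0.071 and -0.0048 on the sugar diet, against 0.19, 0.087 and 0.037 on the control diet. The replicates did not overlap, but the difference of -0.20 ± 0.075 (SE) did not pass the test (limma adjusted p = 0.0698). At the first annotated start, that of *EcR-RA*, the values were -0.25, -0.23 and -0.34 on the sugar diet, against 0.72, 0.62 and 0.54 on the control diet. This window was lower by -0.90 (adjusted p = 0.00161), and lower also relative to the *EcR* span (-0.70, adjusted p = 0.000865). It is AT-rich, with a GC content of 36.0%, and after the GC correction its difference was -0.098 and no longer called. The start of *EcR-RD* and *EcR-RE*, 12.0 kb downstream, was lower by -0.40 and also lost its call, with a corrected difference of 0.20. Starts of *EcR-RB*, *EcR-RC* and *EcR-RG* near 37.2 kb lay below 0 in 2 of 3 sugar replicates and in all control replicates, and were not called, but relative to the *EcR* span that of *EcR-RB* and *EcR-RC* was higher (0.60, adjusted p = 0.0247). Within the introns of *EcR*, single fragments moved far in both directions. The fragment 73.7 kb into the gene had -1.16, 0.055 and -0.72 on the sugar diet, against 2.88, 2.65 and 2.11 on the control diet. The fragment 20.6 kb into the gene had 2.47, 1.79 and 1.42 on the sugar diet, against 0.041, -0.27 and 0.029 on the control diet. Both passed the test before and after the GC correction, and in both the diets did not overlap. *CG14589*, which lies inside *EcR*, was lower by -0.55, and its occupancy and that of *EcR* cannot be told apart.

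*br* (*broad*, FBgn0283451, chrX:1575132-1664869, plus strand) encodes a family of zinc finger factors with a BTB domain and specifies the pupal stage. Its span had 0.94, 1.02 and 1.26 on the sugar diet, against 0.77, 0.68 and 0.71 on the control diet, a rise of 0.35 ± 0.091 (SE; limma adjusted p = 0.024). The lowest sugar replicate lay above the highest control replicate. The call was lost without any 1 control replicate (adjusted p = 0.0548 without replicate 1, 0.0788 without replicate 2 and 0.0633 without replicate 3). A log2 ratio above 1 covered 42.7% ± 4.70 of the *br* span on the sugar diet and 24.4% ± 1.31 on the control diet, and a ratio above 2 covered 18.3% and 8.70%. *br* was the only one of the 10 genes with a peak called in all 3 replicates of a diet, by the find_peaks procedure at an FDR under 0.01. It had 4 such peaks on the sugar diet and 2 on the control diet. At an FDR under 0.001 these were 3 and 0.

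The peak at the 5′ end ran from -1.57 kb to 1.43 kb of the first *br* start on the sugar diet and from -1.57 kb to 0.450 kb on the control diet. An intronic peak from 8.99 kb to 10.9 kb had the same borders on both diets, with 3.79 ± 0.21 on the sugar diet and 2.99 ± 0.26 on the control diet. Both further peaks were common to the replicates on the sugar diet alone, at 13.9 kb to 17.8 kb and at 64.5 kb to 65.4 kb. The control diet was not flat there, since these intervals had 2.69 ± 0.24 and 2.65 ± 0.33 on the sugar diet, against 1.85 ± 0.21 and 1.88 ± 0.16 on the control diet. Peak borders were called from the same ratios and carry no test of their own.

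**Figure D2:**
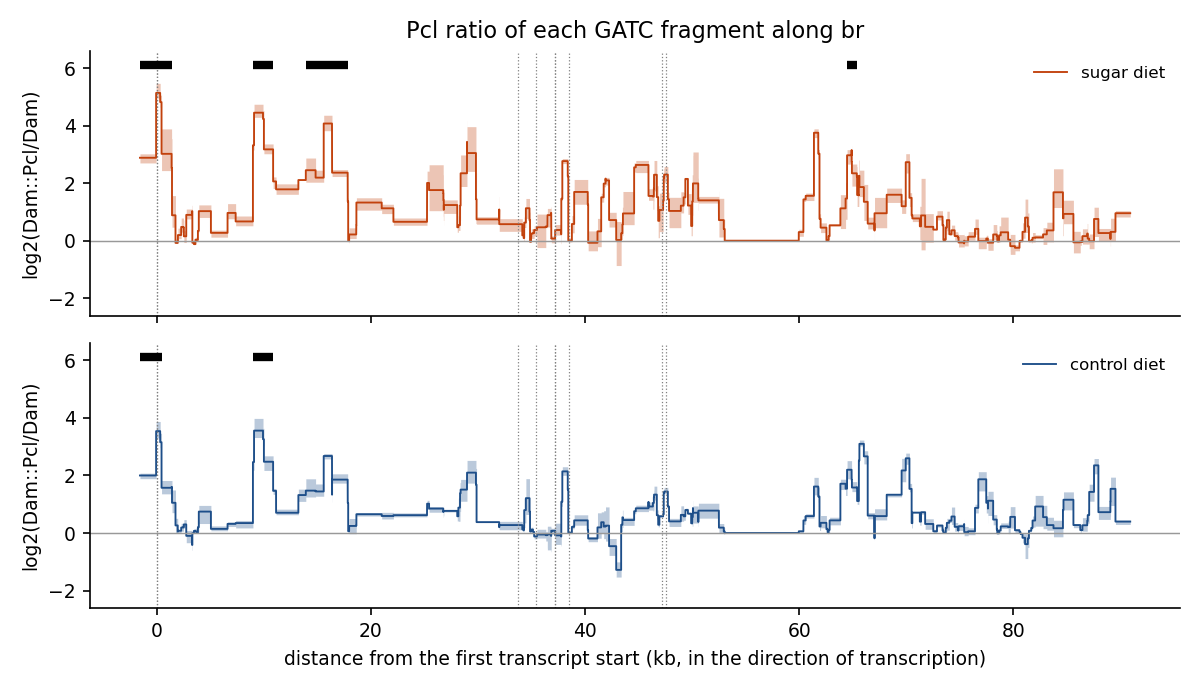
Log2(Dam::Pcl/Dam) of each GATC fragment (y axis) by distance in kb from the first *br* start (x axis), with the mean line and a band from the lowest to the highest of 3 replicates per diet, sugar diet above and control diet below. Black bars mark peaks common to the 3 replicates, 4 on the sugar diet and 2 on the control diet, and dotted lines mark transcript starts; the flat stretch from 55 to 60 kb lies in an annotated transposon.

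The highest fragment of the gene on the sugar diet covers the first start of *br* itself (chrX:1575077-1575455, with part of the 5′ UTR). It had 4.96, 5.47 and 4.98 on the sugar diet, against 3.44, 3.31 and 3.88 on the control diet, a difference of 1.59 (adjusted p = 0.00724) and of 1.46 after the GC correction. The highest fragment on the control diet lay at 9.51 kb in an intron, with 4.29, 4.74 and 4.31 on the sugar diet, against 3.32, 3.37 and 3.98 on the control diet. Beside it lies a short fragment of 84 bases, with 3.96, 4.52 and 4.21 on the sugar diet, against 3.11, 3.03 and 3.63 on the control diet. In each of these fragments the lowest sugar replicate lay above the highest control replicate. The calls on both intron fragments (adjusted p = 0.0394 and 0.028) were lost without sugar replicate 2 or 3 or control replicate 1 or 2, and the first also without sugar replicate 1 (adjusted p between 0.0672 and 0.123). Under quantile normalization both calls were lost as well (0.52 and 0.61, adjusted p = 0.246 and 0.14). The 250 bases upstream of the first start and this short intron fragment are shown, since they hold or adjoin the 2 strongest sites of *br* (BDGP6, plus strand, 5′ to 3′, chrX:1574882-1575131 and chrX:1585058-1585141). Neither holds a match to the motifs searched (a Pho core, a GAGA and a nuclear receptor half-site motif, on both strands), and so neither has capitals.
br upstream of the first start: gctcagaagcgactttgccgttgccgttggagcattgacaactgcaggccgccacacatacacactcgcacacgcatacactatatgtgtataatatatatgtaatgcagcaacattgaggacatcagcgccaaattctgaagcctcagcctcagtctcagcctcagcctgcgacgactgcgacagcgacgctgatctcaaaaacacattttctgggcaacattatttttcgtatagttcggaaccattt
br intron fragment at 9.97 kb: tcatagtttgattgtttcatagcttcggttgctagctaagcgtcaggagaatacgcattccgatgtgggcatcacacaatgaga

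The start windows of *br-RN* and *br-RO* had the largest values of all 37 starts. *br-RN* had 3.18, 3.53 and 3.69 on the sugar diet, against 2.25, 2.08 and 2.41 on the control diet, a rise of 1.22 (adjusted p = 0.00342). The rise held after the GC correction (0.88, adjusted p = 0.00782) and exceeded that of the whole *br* span (by 0.87, adjusted p = 0.000454). The internal starts rose less. *br-RS*, 47.2 kb downstream, had 1.61, 1.47 and 1.59 on the sugar diet, against 0.87, 0.82 and 0.93 on the control diet, and kept its call after the correction with 0.25 (adjusted p = 0.0422). The start shared by 8 transcripts at 37.2 kb rose by 0.50 and lost its call after the correction, and those of *br-RH* and *br-RC* did not pass the test. Not all of *br* rose. A fragment at 61.6 kb that holds part of a coding exon had 3.89, 3.58 and 3.79 on the sugar diet, against 1.59, 1.32 and 1.93 on the control diet. A fragment in the 3′ UTR at 77.1 kb had -0.28, 0.12 and 0.12 on the sugar diet, against 2.01, 2.13 and 1.46 on the control diet. The first of these rose and the second fell, and both passed the test before and after the GC correction.

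The signal at *br* did not stop at its ends. *br* overlaps *Mur2B*, whose span averaged 1.59 ± 0.21 on the sugar diet and 1.04 ± 0.044 on the control diet (SD, n = 3 each, limma adjusted p = 0.0119). The ratio does not know strand, so occupancy of *br* and of *Mur2B* cannot be told apart. From 25 to 20 kb upstream of the first *br* start the mean was 3.44 on the sugar diet, against 2.08 on the control diet, above that of any 5 kb bin within the gene. Downstream, *dor*, 0.183 kb beyond the gene, averaged 0.46 on the sugar diet, against -0.0077 on the control diet (adjusted p = 0.00287). Inside *br*, 22 fragments that cover 6.92 kb were at 0 in all 6 samples, and all lay in 1 annotated transposon of 7.41 kb.

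*Eip74EF* (FBgn0000567, chr3L:17558672-17619325, minus strand), an early gene for a factor with an ETS domain, had span means of -0.10, -0.053 and -0.017 on the sugar diet, against 0.18, 0.041 and 0.044 on the control diet. The difference of -0.15 ± 0.055 (SE) did not pass the test (limma adjusted p = 0.0787). The first start, shared by *Eip74EF-RA*, *Eip74EF-RC* and *Eip74EF-RE*, overlapped between the diets. At the start of *Eip74EF-RB*, 42.7 kb downstream, the values were 0.45, 0.41 and -0.19 on the sugar diet, against -0.39, -0.79 and -0.66 on the control diet. This window was higher by 0.83 (adjusted p = 0.0218), a call that was lost without sugar replicate 1 or 2 or control replicate 2 or 3 (adjusted p = 0.0612, 0.0624, 0.0741 and 0.0605) and after the GC correction. In the large intron, a pair of close fragments moved in opposite directions. The fragment at 28.0 kb had -1.84, -1.19 and -0.84 on the sugar diet, against 3.03, 2.57 and 1.47 on the control diet, and its GC content was 30.3%. The fragment at 28.5 kb had 1.32, 1.48 and 2.66 on the sugar diet, against -0.76, -0.93 and -0.74 on the control diet, with a GC content of 54.8%. The span mean of *Eip74EF* near 0 averages over such pairs.

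*Eip75B* (FBgn0000568, chr3L:17950953-18064696, minus strand), the longest of the 10 at 113.744 kb, encodes a heme-binding nuclear receptor of the Rev-Erb kind. Its span had -0.28, -0.22 and -0.24 on the sugar diet, against 0.052, -0.090 and -0.054 on the control diet, a fall of -0.22 ± 0.052 (SE; limma adjusted p = 0.0195). The diets did not overlap. The call was lost without sugar replicate 1 (adjusted p = 0.0568) or 3 (adjusted p = 0.0508), under quantile normalization (adjusted p = 0.0863) and after the GC correction, where the difference was 0.060. Its 7 starts went different ways. *Eip75B-RE*, 3.24 kb downstream of the first start, had -0.76, -0.46 and -0.61 on the sugar diet, against 0.73, 0.42 and 0.22 on the control diet, and this fall of -1.06 (adjusted p = 0.00424) held after the correction (-0.60, adjusted p = 0.0125). That window draws on only 2 fragments. *Eip75B-RG* was lower by -0.43 and *Eip75B-RA* higher by 0.48, and after the correction these were 0.030 and 0.0087. The start of *Eip75B-RF*, not called as deposited, was called higher after it (0.33, adjusted p = 0.0348), and that of *Eip75B-RB* lower (-0.42, adjusted p = 0.0306). The strongest fragment on the control diet lay in an intron at 43.6 kb. It had 0.22, 1.07 and 0.69 on the sugar diet, against 2.67, 2.60 and 2.41 on the control diet, a fall of -1.90 (adjusted p = 0.00586) that the GC correction left at -1.96, at a GC content of 46.1%. It is shown as a strong site of the control diet whose fall was as large after the correction (BDGP6, chr3L:18020950-18021216, minus strand, 5′ to 3′). Capitals mark 2 matches to GCCAT and 4 to GAGAG, on either strand.
Eip75B intron fragment at 43.6 kb: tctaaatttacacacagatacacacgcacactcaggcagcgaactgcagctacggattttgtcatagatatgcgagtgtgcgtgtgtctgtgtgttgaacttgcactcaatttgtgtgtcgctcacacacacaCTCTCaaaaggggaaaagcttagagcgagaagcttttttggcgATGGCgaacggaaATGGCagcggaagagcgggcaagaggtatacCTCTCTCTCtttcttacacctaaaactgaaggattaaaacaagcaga

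*Eip78C* (FBgn0004865, chr3L:21226609-21266503, plus strand), a nuclear receptor related to *Eip75B*, was the gene with the smallest difference. Its span had -0.036, -0.037 and -0.10 on the sugar diet, against -0.022, -0.12 and -0.024 on the control diet, a difference of -0.0042 ± 0.047 (SE; limma adjusted p = 0.959). A sharp site stood out in an intron, where the fragment at 3.60 kb had 1.89, 3.18 and 2.83 on the sugar diet, against 3.25, 2.89 and 2.98 on the control diet, with no call. Sugar replicate 1 was the lowest of the 6 and the diets overlapped.

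The start of *Eip78C-RB*, 13.7 kb into the gene, was lower. It had -0.49, -0.44 and -0.47 on the sugar diet, against 0.35, 0.090 and 0.062 on the control diet, a fall of -0.63 (adjusted p = 0.00451) and of -0.49 after the GC correction (adjusted p = 0.0104). Its window draws on only 2 fragments. The start of *Eip78C-RA* was higher by 0.31 (adjusted p = 0.0351), and after the correction this was 0.015. The fragment across the first start rose by 2.26 (adjusted p = 0.0193), at a GC content of 56.4%, and a fragment of the 3′ UTR fell by 1.76 (adjusted p = 0.0073), at 30.9%. The first call was lost without control replicate 2 or 3 (adjusted p = 0.0717 and 0.0636).

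*Eip93F* (FBgn0264490, chr3R:21949114-22014539, plus strand) encodes a factor with a Pipsqueak-type DNA-binding domain that acts late in metamorphosis and specifies adult fates. Its span had 0.35, 0.40 and 0.62 on the sugar diet, against 0.68, 0.52 and 0.46 on the control diet, and the difference of -0.098 ± 0.097 (SE) did not pass the test (limma adjusted p = 0.436). A log2 ratio above 1 covered 24.3% ± 10.7 of the span on the sugar diet and 22.0% ± 2.05 on the control diet, and sugar replicate 3 alone reached 36.6%. Under this even mean, fragments of *Eip93F* moved in both directions. Of 106 tested, 24 (22.6%) were called higher and 34 (32.1%) lower, against 16.4% and 17.5% of all fragments. After the GC correction these were 28 and 26, against 22.5% and 18.6% of all. The highest fragment of each diet rose. The intron fragment at 13.1 kb had 3.39, 3.68 and 3.76 on the sugar diet, against 2.18, 1.97 and 1.91 on the control diet, a difference of 1.59 (adjusted p = 0.003) and of 1.49 after the GC correction. The intron fragment at 42.1 kb had 3.25, 3.76 and 3.15 on the sugar diet, against 2.62, 2.58 and 2.67 on the control diet. In both the diets did not overlap. The call at 42.1 kb (adjusted p = 0.0272) was lost without sugar replicate 1 or any 1 control replicate (adjusted p between 0.0543 and 0.091). Under quantile normalization it was lost as well (0.44, adjusted p = 0.183). The largest fall was at 1.32 kb, by 3.76 at a GC content of 35.7%, and the 5 kb from 60 to 65 kb, with a GC content of 30.6%, averaged -0.82 on the sugar diet, against 0.50 on the control diet.

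Sugar replicate 3 stood apart at the promoter of *Eip93F*. The window of the first start, that of *Eip93F-RB*, had 0.64, 0.79 and 2.43 on the sugar diet, against -0.16, -0.42 and -0.62 on the control diet, a rise of 1.69 ± 0.50 (SE; adjusted p = 0.0371) and of 1.57 after the GC correction (adjusted p = 0.0333). The window of 1 kb draws on only 3 fragments, and in windows of 2 kb the rise was 0.68 and not called (adjusted p = 0.0993). Without any 1 control replicate the call was lost (adjusted p between 0.0775 and 0.0997), and without sugar replicate 3 the rise was 1.11. The sole peak called on *Eip93F* was in that replicate. The next fragment upstream, at -0.878 kb, had 1.68, 2.35 and 3.19 on the sugar diet, against 0.61, 0.49 and 0.81 on the control diet, a rise of 1.77 (adjusted p = 0.0263) and of 1.70 after the correction. Every sugar replicate was above every control replicate here too, and the call was lost without sugar replicate 2 or any 1 control replicate (adjusted p between 0.067 and 0.0906). It is shown as the upstream site at which *Eip93F* rose (BDGP6, chr3R:21948089-21948384, plus strand, 5′ to 3′), with 2 overlapping matches to GAGAG, read on the other strand, in capitals.
Eip93F upstream fragment at -0.878 kb: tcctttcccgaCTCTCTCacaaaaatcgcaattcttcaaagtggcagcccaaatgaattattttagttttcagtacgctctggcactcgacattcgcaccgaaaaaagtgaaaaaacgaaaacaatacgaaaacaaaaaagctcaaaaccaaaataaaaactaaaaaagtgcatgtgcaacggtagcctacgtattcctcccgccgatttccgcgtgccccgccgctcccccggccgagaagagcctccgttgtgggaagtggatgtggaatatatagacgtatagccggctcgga

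**Figure D3:**
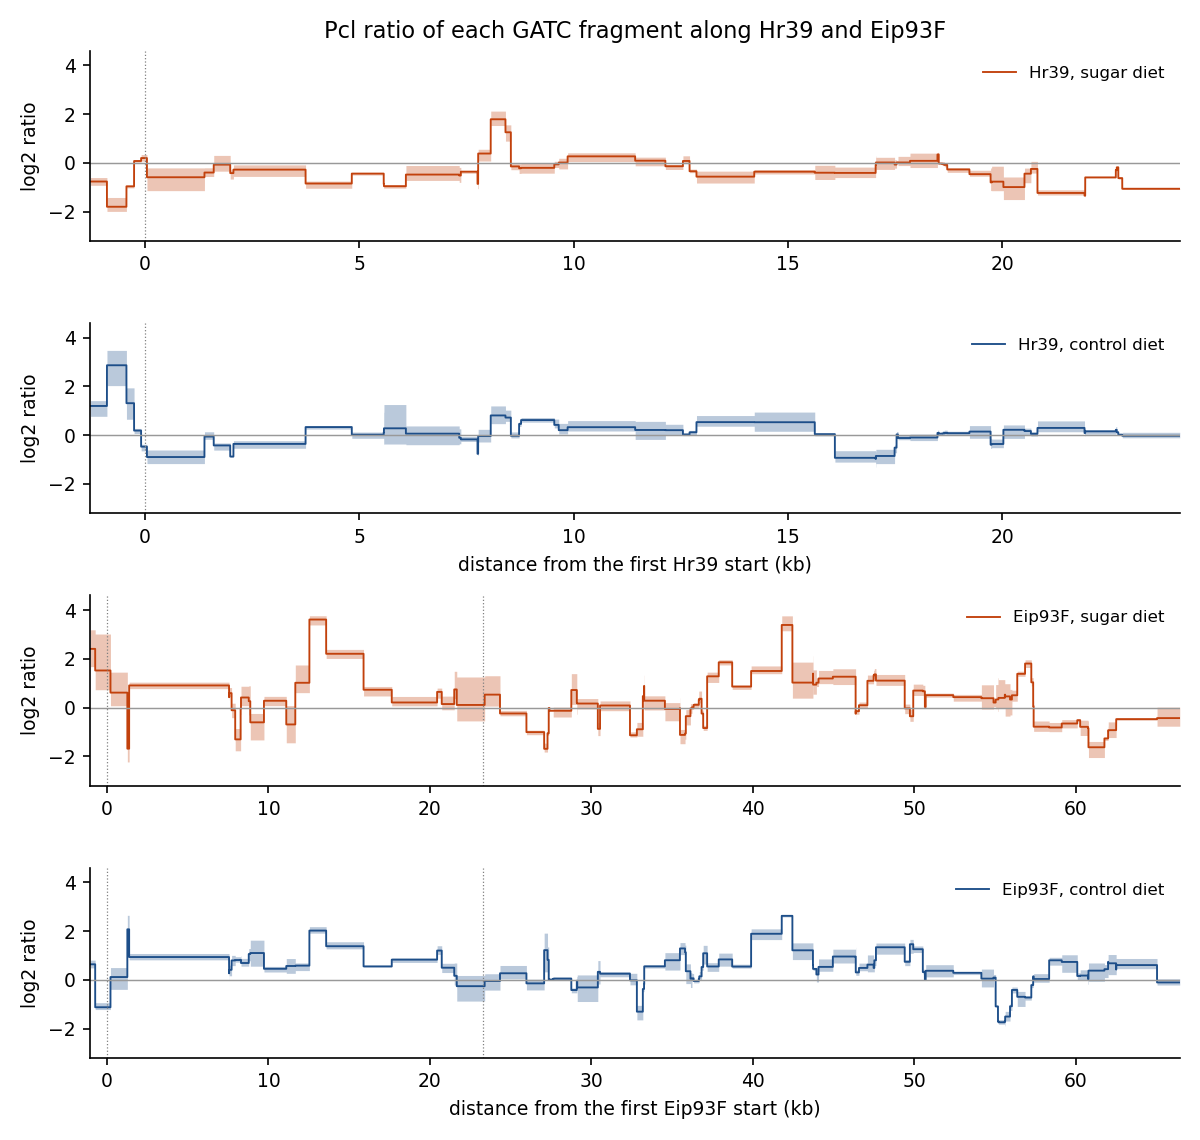
Log2(Dam::Pcl/Dam) of each GATC fragment (y axis) by distance in kb from the first start (x axis) of *Hr39* (upper pair) and *Eip93F* (lower pair), with the mean line and a band from the lowest to the highest of 3 replicates per diet, sugar diet above control diet in each pair, and dotted lines at transcript starts. Upstream of *Hr39* the tall fragment of the control diet, mean 2.87, lies at -1.80 on the sugar diet, while the fragment at 13.1 kb of *Eip93F* is at 3.61 on the sugar diet and 2.02 on the control diet.

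*Hr3* (FBgn0000448, chr2R:10203995-10237348, minus strand), the ROR-type nuclear receptor that activates *ftz-f1* in prepupae, had span means of -0.12, -0.032 and -0.031 on the sugar diet, against 0.15, 0.091 and 0.015 on the control diet. The difference of -0.15 ± 0.055 (SE) did not pass the test (limma adjusted p = 0.0717). Its starts differed from each other. The start of *Hr3-RC* and *Hr3-RI*, 2.74 kb downstream of the first, had 0.81, 1.10 and 1.16 on the sugar diet, against 0.38, 0.073 and 0.077 on the control diet. This rise of 0.85 (adjusted p = 0.00565) was 0.87 after the GC correction (adjusted p = 0.00464), and it exceeded the change of the span by 1.00 (adjusted p = 0.000192). The window draws on only 2 fragments. The start of *Hr3-RA*, *Hr3-RF* and *Hr3-RH*, 9.39 kb downstream, had -0.32, -0.40 and -0.32 on the sugar diet, against 0.23, 0.012 and -0.0070 on the control diet. It fell by 0.42 (adjusted p = 0.0109) and by 0.49 after the correction, but in windows of 0.5 kb the difference was -0.044. Starts called in both directions were thus present in *Hr3*, as in *Eip75B* and *Eip78C*. The highest *Hr3* fragment on both diets was centered 0.544 kb upstream of the first start. It overlaps *Hdc* and *lncRNA:CR45265*, so its occupancy cannot be assigned to *Hr3* alone. This fragment had 1.04, 1.57 and 1.77 on the sugar diet, against 3.09, 2.73 and 2.07 on the control diet (adjusted p = 0.0481, and 0.0578 after the correction). With 1 replicate left out, the call held without control replicate 3 and was lost without any other (adjusted p between 0.0704 and 0.139). *CG46321*, inside *Hr3*, was lower by -0.30.

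*Hr4* (FBgn0264562, chrX:1941940-2007956, plus strand), a nuclear receptor of the GCNF kind needed for the prepupal response, had span means of 0.15, 0.14 and 0.25 on the sugar diet, against -0.063, -0.094 and -0.030 on the control diet. The rise of 0.25 ± 0.048 (SE; limma adjusted p = 0.0102) was called with any 1 replicate left out, and *Hr4* moved to percentile 68.8 of all genes on the sugar diet, against 38.8 on the control diet. After the GC correction, at a span GC content of 45.7%, the difference was 0.061 (adjusted p = 0.45). A ratio above 1 covered 6.19% ± 4.44 of the span on the sugar diet and 0.254% ± 0.441 on the control diet. The first start, shared by 7 transcripts, was not called, with a difference of 0.013. The start of *Hr4-RE* and *Hr4-RF*, 50.4 kb downstream, had 0.10, -0.17 and 0.70 on the sugar diet, against -0.77, -0.42 and -0.54 on the control diet. This call (0.79, adjusted p = 0.0391) was lost without sugar replicate 1 or any 1 control replicate (adjusted p between 0.0734 and 0.114), in windows of 0.5 kb (0.56, adjusted p = 0.149) and after the GC correction (0.20, adjusted p = 0.509). Within *Hr4* the intron fragment at 25.4 kb was the highest on the sugar diet, with 1.74, 2.12 and 1.55 on the sugar diet, against 0.48, 0.39 and 0.74 on the control diet. It passed the test before (adjusted p = 0.008) and after the correction (adjusted p = 0.01). *PIG-K*, which overlaps *Hr4*, was not called.

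*Hr39* (FBgn0261239, chr2L:21237250-21259675, plus strand), a nuclear receptor of the same family as *ftz-f1*, fell the most of the 10. Its span had -0.43, -0.36 and -0.36 on the sugar diet, against 0.27, 0.015 and 0.026 on the control diet, a difference of -0.49 ± 0.082 (SE; limma adjusted p = 0.00663). The call held with any 1 replicate left out, and the *Hr39* span was at percentile 21.2 of all genes on the sugar diet, against 56.4 on the control diet. At a GC content of 39.1%, the corrected difference was -0.094 and not called. Its single start window had -0.77, -0.98 and -0.65 on the sugar diet, against 0.75, 0.32 and 0.11 on the control diet. This fall of -1.19 (adjusted p = 0.00539) was -0.71 after the correction (adjusted p = 0.0159) and larger than that of the *Hr39* span, but within 0.5 kb of the start it was -0.51 and not called (adjusted p = 0.0649). Much of it came from 1 fragment at -0.660 kb, which had -1.99, -1.42 and -1.99 on the sugar diet, against 3.48, 3.09 and 2.03 on the control diet. Its fall of -4.67 (adjusted p = 0.00344; -3.79 after the correction) was the largest of any fragment named here. The fragment is AT-rich, with a GC content of 28.1%, and it overlaps *CG31626* and an annotated INE-1 transposon. The 208 bases of it that touch no exon and no transposon are shown for that base composition (BDGP6, chr2L:21236436-21236643, plus strand, 5′ to 3′), and they hold no motif match. The fragment at 8.24 kb went the other way, with 1.71, 2.12 and 1.53 on the sugar diet, against 0.76, 0.47 and 1.20 on the control diet, a call (adjusted p = 0.0356) that was lost with any 1 replicate but control replicate 3 left out (adjusted p between 0.0531 and 0.108). That call was also lost under quantile normalization (0.79, adjusted p = 0.101). Neighboring genes fell as well, *CG31626* by 0.54 and *l(2)k14505* by 0.67.
Hr39 upstream stretch at -0.711 kb: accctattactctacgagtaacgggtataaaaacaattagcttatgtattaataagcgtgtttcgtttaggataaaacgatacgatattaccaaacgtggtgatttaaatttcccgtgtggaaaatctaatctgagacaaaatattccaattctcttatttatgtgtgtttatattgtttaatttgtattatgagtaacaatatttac

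*ftz-f1* (FBgn0001078, chr3L:18750607-18801309, minus strand) encodes the SF-1-type nuclear receptor that makes prepupal tissues competent for the next hormone pulse. Its span had -0.15, 0.030 and -0.14 on the sugar diet, against 0.38, 0.27 and 0.14 on the control diet, a fall of -0.35 ± 0.083 (SE; limma adjusted p = 0.0193). The call was lost without sugar replicate 1 or 3 or control replicate 1 or 2 (adjusted p between 0.054 and 0.0627). At a GC content of 37.3%, the lowest of the 10, *ftz-f1* was called in the opposite direction after the GC correction (0.23, adjusted p = 0.0339), so its direction depends on that step. The first start, that of *ftz-f1-RB*, had 0.020, -0.050 and 0.17 on the sugar diet, against 0.16, 0.024 and -0.15 on the control diet, with no call. Its difference was 0.51 after the GC correction (adjusted p = 0.0104), 0.78 in windows of 0.5 kb and -0.56 in windows of 2 kb. The start of *ftz-f1-RC* and *ftz-f1-RD*, 35.6 kb downstream, had -0.29, -0.26 and -0.27 on the sugar diet, against 0.76, 0.43 and 0.41 on the control diet, and this fall of -0.81 (adjusted p = 0.00363) was not called after the correction (-0.15, adjusted p = 0.282) or in windows of 2 kb (-0.34, adjusted p = 0.0816). The fragment with the largest fall lay upstream at -1.13 kb and overlaps *CG14073*, so its occupancy cannot be assigned to *ftz-f1* alone. The span of *CG14073* was lower by -0.62 (limma adjusted p = 0.00451). With a GC content of 27.1%, the fragment had -2.87, -2.93 and -2.79 on the sugar diet, against 1.38, 1.41 and -0.21 on the control diet. Its fall was -2.99 after the correction (adjusted p = 0.00508). The fragment with the largest rise, a coding exon at 37.3 kb with a GC content of 59.3%, had 1.46, 0.75 and 0.099 on the sugar diet, against -1.08, -2.25 and -2.19 on the control diet. Its rise was 2.26 after the correction (adjusted p = 0.0138). The call on the exon was lost without control replicate 2 or 3 (adjusted p = 0.061 and 0.0537).

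**Figure D4:**
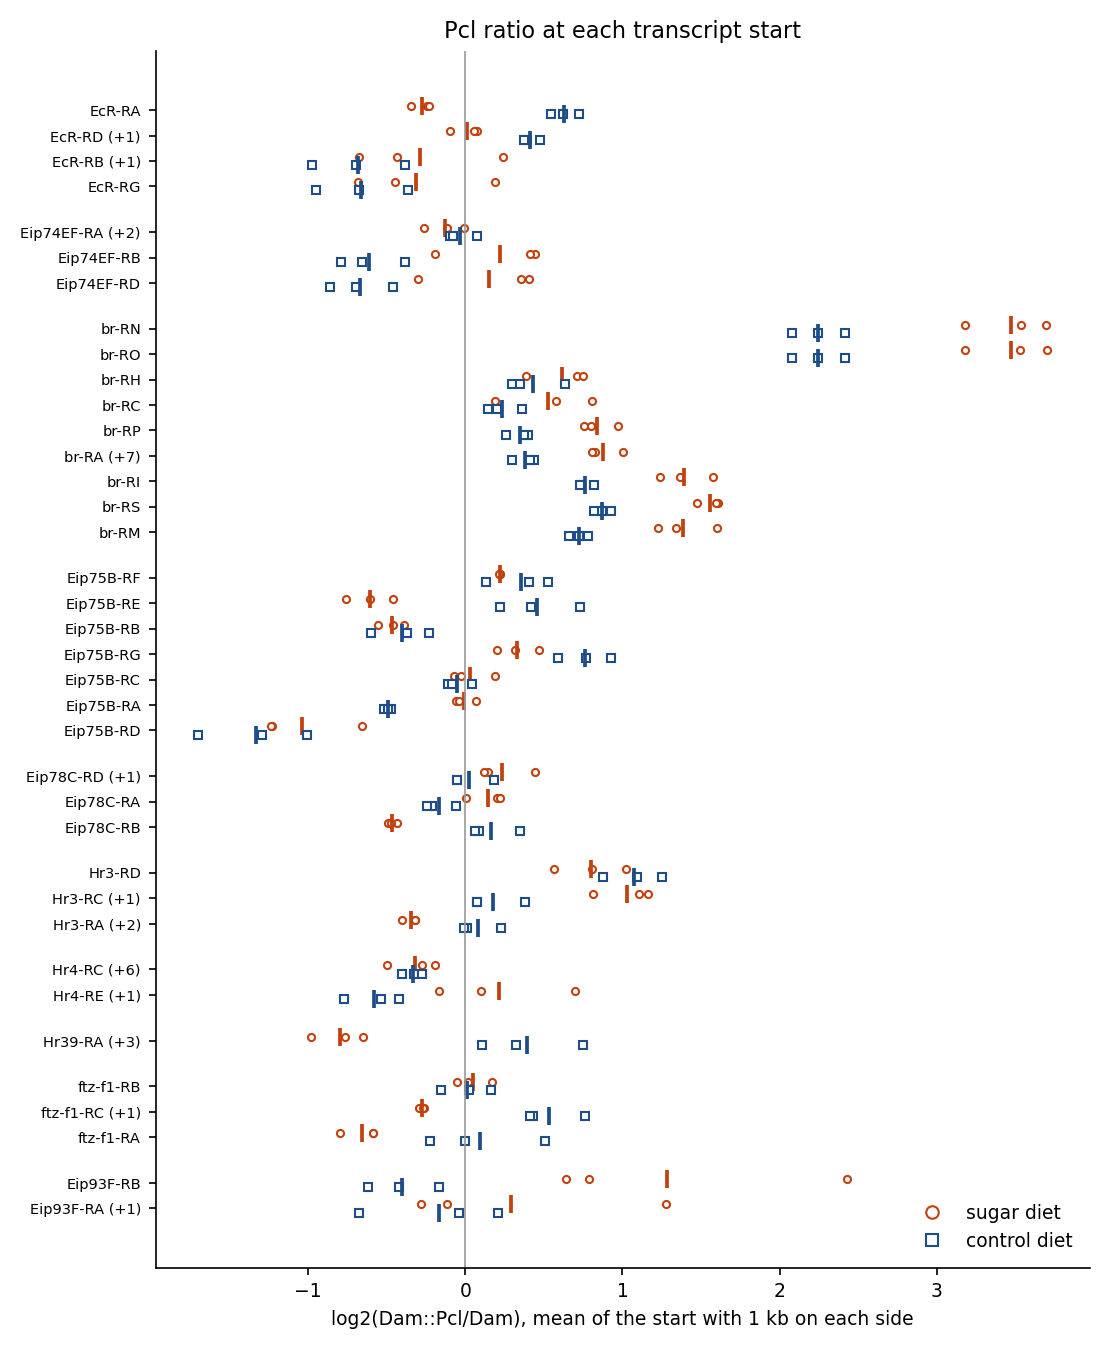
Mean log2(Dam::Pcl/Dam) within 1 kb of each of the 37 transcript starts (x axis), named by the first transcript of the start with the number of others in parentheses (y axis). Open circles are the 3 sugar replicates and open squares the 3 control replicates, with a vertical tick at each mean; both starts at the 5′ end of *br*, at 3.47 on the sugar diet, stand apart from all others.

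Over the 37 starts, whose windows fall into 26 groups without overlap, 14 were called higher and 9 lower, against 22% and 24.2% of the 23687 starts tested. Of these, 7 of the 14 belong to *br*. After the GC correction 7 were called higher and 5 lower, against 17% and 16.9% of all starts. Of the member starts called before, 9 kept their direction and call, a share that was not counted over all starts. Of all 37, 0 were called before and in the opposite direction after it, where 2.06% of the 23687 starts tested were. Set against the span of their own gene, 16 starts changed upward and 6 downward, where 27.4% and 22.3% of the 4271 starts tested in this way did. After the correction these were 7 and 8, against 26.4% and 14.3%. Starts near each other share fragments, and so the 9 starts of *br* are not independent.

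The differences between the diets ran with GC content. The spans of the 10 genes held between 37.3% (*ftz-f1*) and 47.3% (*br*) of G and C, and 8 lay under the median of 43.3% over all genes. Across the 10 genes, which are not independent replicates, the difference and the GC content had a Pearson r of 0.94 and a Spearman rho of 0.84, and across all genes tested these were 0.68 and 0.69. All values come from the same 6 samples. After the GC correction the Pearson r over the 10 was -0.18, and the differences were 0.080 (*EcR*), 0.050 (*Eip74EF*), 0.073 (*br*), 0.060 (*Eip75B*), 0.11 (*Eip78C*), 0.015 (*Hr3*), 0.061 (*Hr4*), -0.094 (*Hr39*), 0.23 (*ftz-f1*) and 0.19 (*Eip93F*). Among them *ftz-f1* alone was called, where 14.5% of all genes were called higher and 18.6% lower. The median was 0.067 over the 10 and -0.011 over all genes. Whether the trend with GC content comes from the libraries or from the occupancy itself was not tested.

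**Figure D5:**
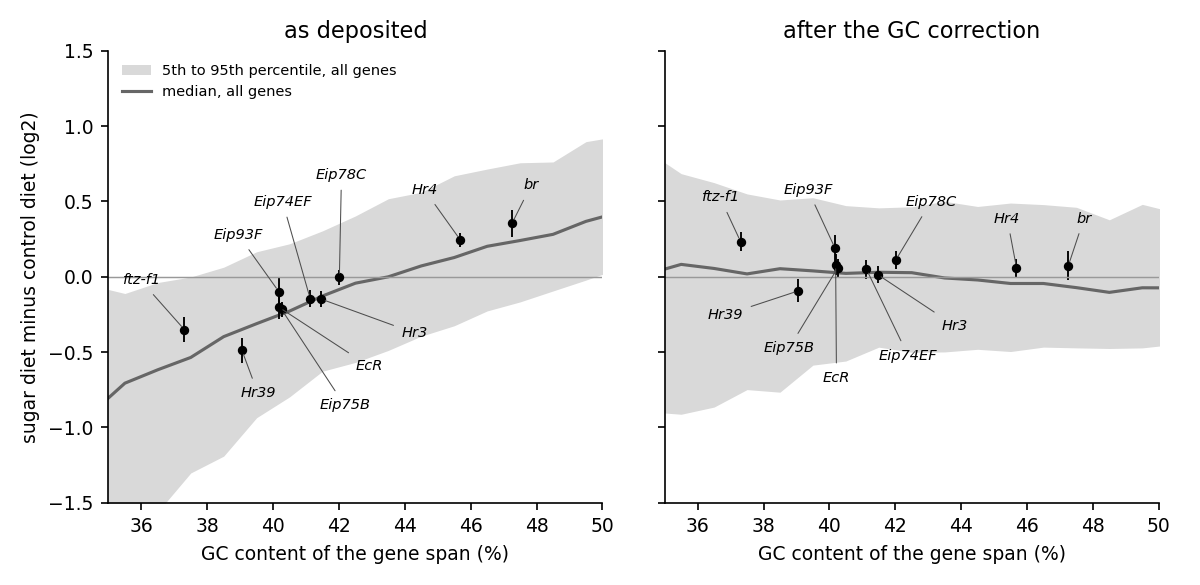
Difference between the sugar and the control diet on the log2 scale (y axis) by GC content of the gene span in percent (x axis), as deposited (left) and after the GC correction (right). Points are the 10 genes with their SE, the line is the median and the gray band the 5th to 95th percentile of all genes per 1% of GC content; the 10 genes follow the sloping median on the left, from *Hr39* at -0.49 to *br* at 0.35, and lie between -0.094 and 0.23 on the right.

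Single fragments were split in the same way. The 10 spans hold 1554 fragments, of which 1438 were not at 0 in all 6 samples and were tested. Of these 275 (19.1%) were called higher and 359 (25.0%) lower, against 16.4% and 17.5% of the 342811 fragments tested. Among fragments under 37% GC, 13 (3.45%) were called higher and 213 (56.5%) lower of 377, against 3.39% and 46.2% of all fragments of that GC content. From 37% to 45%, these were 48 (10.9%) and 98 (22.3%) of 440, against 9.32% and 17.7% of all. At 45% or more they were 214 (34.5%) and 48 (7.73%) of 621, against 26.2% and 5.86% of all. The order of the classes in the 10 genes was that of the whole genome. After the GC correction 363 were called higher and 305 lower, against 22.5% and 18.6% of all fragments. Of the 634 fragments called before, 451 kept their call and direction, a share that was not counted over all fragments. Of the 1438 tested, 16 were called before and in the opposite direction after the correction, as were 3412 (0.995%) of the 342811 fragments tested. Of the 116 fragments at 0 in all 6 samples, 104 lay in annotated transposons of 6 of the genes.

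Short sequence motifs were read in the shown fragments for GCCAT, the core of sites of the Polycomb recruiter Pho, for GAGAG, bound by GAGA factor, and for AGGTCA, a nuclear receptor half-site, on both strands with overlapping matches counted apart. AGGTCA was in none of the shown sequences. Windows of 267 bases at the start of every tested fragment of that length or more held GCCAT in 44.0% and GAGAG in 27.8% of cases, against which the matches in the *Eip75B* fragment can be read. For the 250 bases upstream of *br* these shares were 42.0% and 26.2%, and for the 84 bases 17.3% and 9.99%. For the 296 bases of *Eip93F*, 29.9% of such windows held GAGAG. The matches are a description of the letters and not of binding.

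Other genes of the pathway were read from lists written by hand, against the same background of 22.3% of genes called higher and 25.7% lower. Of 9 genes for ecdysone synthesis and breakdown, 2 rose and 3 fell on the sugar diet. The hydroxylase gene *phantom*, listed as *phtm*, averaged 0.86 ± 0.082 on the sugar diet and 0.15 ± 0.052 on the control diet. *Cyp18a1*, whose enzyme inactivates the hormone, averaged 0.031 on the sugar diet, against -0.30 on the control diet, and *sad* averaged -0.12 on the sugar diet, against 0.048 on the control diet. *phtm* and *Cyp18a1*, the 2 that rose, are neighbors on the X. Their spans with 1 kb on each side overlap, so these rises are not independent. *shd*, for the last hydroxylation step to the active hormone, was not called, at 0.34 on the sugar diet and 0.77 on the control diet. After the GC correction 3 of the list were higher and 1 lower, and *nvd* and *spok*, lower as deposited, were among the higher ones, a pair noted after their values were seen.

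Of 8 genes for uptake of the hormone, the receptor partner and cofactors, 1 was higher and 5 were lower. *trr*, a histone methyltransferase that acts with *EcR*, averaged 0.040 on the sugar diet, against -0.69 on the control diet. *Utx*, a demethylase of lysine 27 of histone H3, averaged -0.81 on the sugar diet, against -0.026 on the control diet. The receptor partner *usp* averaged -0.33 on the sugar diet, against 0.042 on the control diet. *Hr38* was the most occupied of the list, at 0.95 on the sugar diet and 0.77 on the control diet, with no call. After the GC correction 0 were higher and 2 lower.

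Of 12 other nuclear receptor genes, 2 were higher and 2 lower. These were *kni*, with 2.37 ± 0.13 on the sugar diet and 1.60 ± 0.19 on the control diet, *svp*, with 2.61 ± 0.10 on the sugar diet and 2.01 ± 0.056 on the control diet, *Hr83*, with -0.12 ± 0.074 on the sugar diet and 0.22 ± 0.14 on the control diet, and *Hnf4*, with -0.28 ± 0.087 on the sugar diet and -0.0093 ± 0.093 on the control diet. With the GC correction 2 were higher and 4 lower, with *Hnf4* no longer called and *ERR*, *Hr78* and *Hr96* lower. *dsf* and *Hr51* had the highest levels of this list on the sugar diet, 2.80 and 2.76, against 2.46 and 2.21 on the control diet, and were not called. Of 33 late and tissue targets, 2 were higher and 14 lower. Most of the lower ones were *Eig71E* genes of 1 cluster, whose neighboring spans with 1 kb on each side share fragments. Their calls are thus not independent. The largest falls were in the salivary gland genes *Eig71Eh*, *Eig71Ej* and *Eig71Eg*, by 1.42, 1.41 and 1.38, which lie in 1 cluster with GC contents between 33.6% and 35.0%, and 2 of these, *Eig71Eh* and *Eig71Eg*, were also called after the GC correction. *Edg84A* and *Sgs5* had the highest levels, 2.74 and 2.13 on the sugar diet, against 3.19 and 2.62 on the control diet. After the correction 5 targets were higher and 5 lower. The medians of the differences of the 4 lists were -0.060, -0.25, -0.022 and -0.12 in the order given, against -0.0072 over all genes.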

How the data were processed

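Genomic DNA methylated by *Dam::Pcl* was profiled by TaDa in 6 samples, 3 per diet. Per the methods, reads of a quality score under 30 were dropped by the authors and the remainder aligned with Bowtie2 to dm6 (BDGP6). The deposited values are log2 ratios of *Dam::Pcl* to *Dam* per GATC fragment, computed by the authors with damidseq_pipeline. The ratios keep no depth, the *Dam*-only libraries were not analysed here, and any error of the denominator enters every value that shares it. Labels, titles and methods differ on the days of diet and the temperature of induction.

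Length-weighted means over gene spans and start windows (BDGP6.54, Ensembl release 115, at least 2 fragments) were computed in Python 3.11.15 (numpy 2.4.6, pandas 2.3.3, matplotlib 3.10.9), with GC content and sequences read from the dm6 reference. Sugar minus control was tested with limma 3.58.1 in R 4.3.3 (lmFit, eBayes, Benjamini-Hochberg over all features). The methods name DiffBind, which needs reads. The replicates are 3 biological replicates per diet in the labels. The find_peaks procedure was rewritten in Python (quantiles 0.95 to 0.99, runs of at least 2 fragments, 100 shuffles, FDR under 0.01). For the GC correction, each sample's deviation from the mean of the 6 was regressed on the mean level, on GC content and its square, and on the products of these. Only the parts that vary with GC content were taken out, relative to the median GC content. A trend with level alone stayed in. The steps were tested on simulated data. The other alternatives were quantile and median/MAD scaling, the replicate block, eBayes with trend and robust, treat at a fold of 1.5, adjusted p under 0.01, other windows and filters, and each replicate left out.

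All 10 members were named. From each pathway list at most 3 called genes with the largest difference and 2 with the highest level were named, and the nearest gene on a side where the edge of a signal was described. Beyond that rule, *nvd*, *spok*, *Hnf4*, *ERR*, *Hr78* and *Hr96* were named after their values were seen. Fragments were named as the highest or the most changed of a gene, after their values were seen. The members and lists were chosen with earlier results of these data known.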

Additional observations from a re-analysis of the deposited data

How the results depend on the processing

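With the GC correction, alone or with the replicate block, the differences of *EcR* (0.080), *Eip74EF* (0.050), *Eip75B* (0.060), *Eip78C* (0.11), *Hr3* (0.015), *ftz-f1* (0.23) and *Eip93F* (0.19) were above 0. That of *Eip78C* was also above 0 under quantile normalization (0.077), median and MAD scaling (0.044) and 2 kb flanks (0.030), and the *ftz-f1-RB* start was at -0.56 in 2 kb windows. Of the 10 spans, called higher were 1 under median and MAD scaling, 1 with the GC correction, 1 with the replicate block, and 0 with block and GC correction together, with treat at a fold of 1.5 or at an adjusted p under 0.01. Called lower were 0 with the GC correction, alone or with the block, 0 with treat and 1 at 0.01. Of the 37 starts, called higher were 7 with the GC correction, 5 with block and GC correction, 0 with treat, 9 at 0.01 and 8 with at least 5 fragments, and called lower were 5, 4 and 0 under the first of these, 1 with at least 5 fragments and 3 in 0.5 kb windows. Starts with too few fragments were not tested under the filter of 5 or in the 0.5 kb windows, so these counts are not out of 37. Of the 14 starts tested singly, 5 remained under the filter, all on their side of the threshold, and 10 in the 0.5 kb windows. Relative to their span, 10 starts were higher with the replicate block and 7 with the GC correction. Of all genes, starts and fragments, 8693, 10943 and 116193 were called as deposited. With block and GC correction 3872 genes and 5641 starts were called, with treat 242 and 1108, and at 0.01 4617 and 5622. The replicate numbers did not pair the samples (correlations of same-numbered deviations -0.30, 0.21 and -0.21), and with the block 72400 fragments were called, among them 177 higher and 235 lower in the 10 genes. The block also took the span calls of *br* (adjusted p = 0.0589) and *Eip75B* (adjusted p = 0.0735). Median and MAD scaling took the calls of the *br* span (0.89, adjusted p = 0.135) and the *br-RN* start (3.12, adjusted p = 0.0975), on a scale in units of MAD. Of the 14 starts tested singly, 8 stayed on their side of the threshold with the GC correction, 5 lost and 1 gained a call, and of the 39 fragments 37 stayed, 1 lost and 1 gained. Under quantile normalization 4 of the 39 fragments lost a call, all of them rises on the sugar diet, and 2 falls gained one. With the replicate block 8 fragments lost and 1 gained a call. The SD of the fragment ratios was 0.94 to 1.02 in the sugar samples and 0.84 to 0.93 in the control samples. *br* had 0 common control peaks at an FDR under 0.001. A ratio above 2 covered 18.3% of *br* on the sugar diet, against 8.70% on the control diet, and 6.69% and 2.54% of *Eip93F*.

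With 1 replicate left out, 6091 to 7639 genes, 7419 to 9857 starts, 1557 to 2091 starts relative to their span and 65298 to 97401 fragments were called. Among the 10 genes these were 1 to 2 spans higher and 1 to 3 lower, 9 to 13 starts higher and 7 to 9 lower, 8 to 14 starts higher and 5 to 6 lower relative to their span, and 139 to 237 fragments higher and 238 to 307 lower. The difference ran from -0.035 to 0.018 at the *Eip78C* span and from -0.047 to 0.11 at *ftz-f1-RB*. The cause of these changes was not tested.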
